A study of Homo sapiens with 12 samples.

Results

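ALDH9A1, the gene of a cytosolic aldehyde dehydrogenase, was examined together with 9 relatives of its family across the 4 siRNA groups of the series. The 10 genes were taken by symbol from the gene-level count table and the TPM table (transcript level per gene length and library total), as 10 of the 58051 genes listed. ALDH9A1 heads the list, selected on its low transcript counts in the siNELFA libraries, so its own differences between groups are given as a description, with no test. The relatives are ALDH1A3, ALDH1B1, ALDH2, ALDH3A2, ALDH3B1, ALDH6A1, ALDH7A1, ALDH16A1 and ALDH18A1, and the question put to them is whether any is lower or higher where ALDH9A1 is low.

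The cells were MDA-MB-231, an established triple-negative breast cancer line, and all 12 libraries were ribosomal-RNA-depleted total RNA. The siControl group received a non-targeting siRNA pool, siNELFA a pool against NELFA, siYAP a pool against YAP1, and siNELFA+siYAP both targeting pools, with 3 libraries in each group. NELFA encodes a subunit of the negative elongation factor, which holds RNA polymerase II close to promoters, and YAP1 encodes the transcriptional co-activator of the Hippo pathway. The siRNA was used at 50 to 100 nM. The labels mention harvests at 48 and 72 h, and by the methods the RNA was taken at 72 h from independent biological replicates. The library names, however, number those of siControl, siNELFA and siYAP as separate replicates and those of siNELFA+siYAP as repeats under a single replicate number, although the sample titles count 3 replicates in each group. Whether the siNELFA+siYAP libraries come from separate transfections is thus not settled, and their SDs, standard errors and p-values may measure technical spread. One pool was used per target, so an effect of losing NELFA and an effect of that siRNA pool itself cannot be told apart here.

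Aldehyde dehydrogenases oxidise aldehydes to acids with NAD or NADP. ALDH9A1 oxidises trimethylaminobutyraldehyde on the way to carnitine and can also turn aminobutyraldehyde, a product of putrescine breakdown, into GABA. Its relatives divide the remaining aldehydes among themselves, from retinaldehyde and acetaldehyde to fatty aldehydes and the semialdehydes of amino acid metabolism.

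Totals ran from 9608145 to 18803104 counts per library. The line's markers VIM, at 750 to 1181 TPM, and CD44, at 575 to 1170 TPM, were present in every library, and AXL and FOSL1 were too. ESR1, PGR and PTPRC had at most 6 counts in any library. ERBB2 transcript was present in every library, at 422 to 1474 counts or 15.7 to 29.4 TPM. Replicate 1 of siControl, siNELFA and siYAP stood apart from all others. CDH1, an epithelial cadherin, had 169 to 599 counts in those 3 libraries and 0 to 17 in the other 9, and EPCAM, an epithelial adhesion molecule, had 15.4 to 18.2 CPM (counts scaled to the library total) there against 4.66 to 9.54. Replicate 1 of siNELFA+siYAP lacked this pattern. Values without replicate 1 are given below where they move a difference or a call.

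The targeted transcripts followed the labels. NELFA averaged 403 and 405 normalized counts in the siControl and siYAP groups against 130 and 106 in the siNELFA and siNELFA+siYAP groups, and no siNELFA-containing library overlapped a library without it. YAP1 lay at 246 to 302 CPM with siControl and 247 to 291 CPM with siNELFA, against 37.6 to 46.1 CPM with siYAP and 40.1 to 44 CPM with both pools.

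ALDH9A1 (ENSG00000143149) lies on chromosome 1 of GRCh38, from 165662216 to 165698562 on the minus strand, with 11 exons in GENCODE. The 250 bases before its annotated start are shown beside those of ALDH18A1, the relative with the largest difference in units of its standard error in the double knockdown, because NELF acts close to promoters. Capitals mark the GC box, GGGCGG or its reverse CCGCCC, and both sequences are RefSeq, build GRCh38.p14, read 5′ to 3′ on the gene's strand.
ALDH9A1, chr1:165698563-165698812, minus strand: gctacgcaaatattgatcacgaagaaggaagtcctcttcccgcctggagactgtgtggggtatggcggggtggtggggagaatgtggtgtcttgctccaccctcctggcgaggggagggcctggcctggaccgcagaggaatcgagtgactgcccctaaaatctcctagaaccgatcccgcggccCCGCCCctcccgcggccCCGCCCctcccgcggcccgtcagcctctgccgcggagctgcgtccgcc
ALDH18A1, chr10:95656712-95656961, minus strand: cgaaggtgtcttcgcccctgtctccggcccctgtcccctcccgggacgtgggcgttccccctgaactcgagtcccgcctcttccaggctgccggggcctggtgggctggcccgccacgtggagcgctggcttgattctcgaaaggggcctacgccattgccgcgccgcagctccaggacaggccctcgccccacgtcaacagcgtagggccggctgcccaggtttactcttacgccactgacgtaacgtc
The ALDH9A1 window held 2 GC boxes and the ALDH18A1 window held 0. Of 35116 RefSeq promoter windows of this table, 42.6% held a GC box on either strand. The letters GGAATG, the core recognised by the TEAD partners of YAP, were in 0 of the 10 windows found for 8 of the 10 genes and in 11.9% of all windows. TATAAA was likewise in 0 of the 10 windows and in 10.7% of all. These are letter matches in a fixed window and describe no binding.

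ALDH9A1 transcript was at 11.7 to 13.2% of its mean control level in the groups that had received siNELFA. In bulk RNA, fewer cells making a transcript and less of it in each cell cannot be told apart. The siControl libraries held 631, 1575 and 1751 ALDH9A1 counts, or 68.2, 86.6 and 90.5 CPM after TMM scaling. The siNELFA libraries held 118, 220 and 184 counts, or 9.24, 12.7 and 10.4 CPM. No siNELFA library came near the lowest control library.

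In siYAP, ALDH9A1 was at 70.6, 83.6 and 93.1 CPM, from 735, 1174 and 1513 counts. In siNELFA+siYAP it was at 9.17, 10.3 and 9.29 CPM, from 111, 144 and 173 counts. The 12 libraries thus formed 6 high and 6 low ones with no value between 12.7 and 68.2 CPM, and siNELFA alone divided them.

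Group means were 81.8 ± 11.9 CPM for siControl and 82.4 ± 11.3 CPM for siYAP, against 10.8 ± 1.74 CPM for siNELFA and 9.58 ± 0.614 CPM for siNELFA+siYAP (SD, n = 3 each). The siNELFA mean was 13.2% of siControl and the siNELFA+siYAP mean 11.7%. On the log2 scale the difference was -2.92 (SE 0.21) for siNELFA against siControl, -3.10 (SE 0.16) for siNELFA+siYAP against siControl and -3.11 (SE 0.15) for siNELFA+siYAP against siYAP. These 3 values selected the gene and carry no test, and the first 2 share their control libraries.

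Genes were tested with edgeR's quasi-likelihood test, with p-values adjusted over all genes by Benjamini-Hochberg. For ALDH9A1 both siYAP contrasts are differences between the values that selected it, so they too carry no test. Between siYAP and siControl ALDH9A1 differed by 0.01 on the log2 scale (SE 0.19), less than the spread between libraries. Between siNELFA+siYAP and siNELFA it differed by -0.17 (SE 0.19). The change in the siNELFA effect when siYAP was also present, the interaction over all 12 libraries, was -0.18 (SE 0.24), and it carries no test because it is built from selecting contrasts. Neither siYAP difference exceeded its standard error, and an effect of siYAP on ALDH9A1, alone or added to siNELFA, was not tested.

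**Figure D1:**
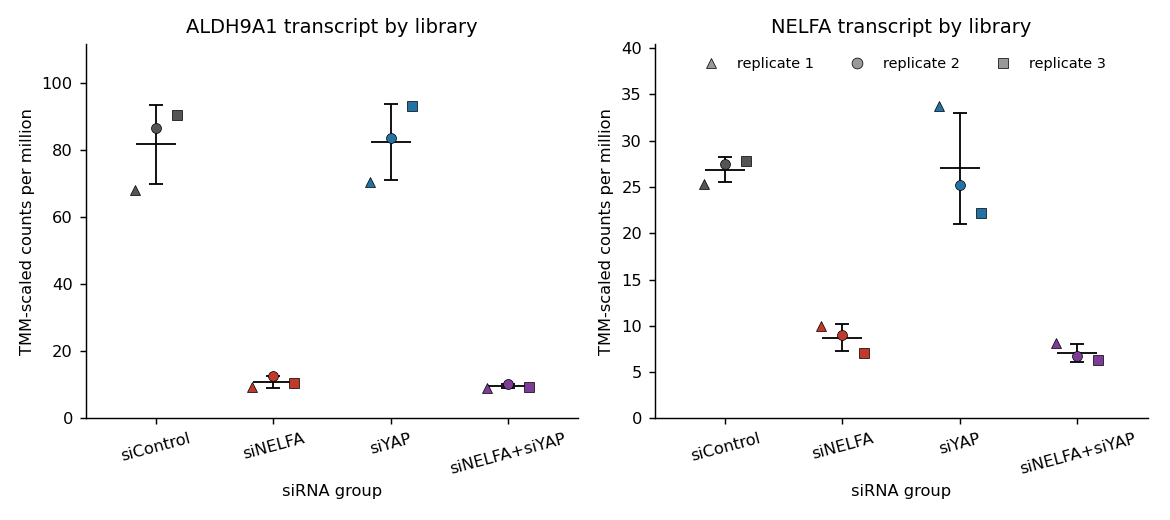
ALDH9A1 (left) and NELFA (right) in TMM-scaled CPM, 1 point per library by siRNA group, with the replicate number as the symbol, the mean as a horizontal line and the SD of 3 libraries as the bar. The 6 libraries with siNELFA lie at 9.17 to 12.7 CPM for ALDH9A1, and the 6 without it at 68.2 to 93.1.

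A small RNA gene inside ALDH9A1 was low in the same libraries. The Y RNA gene ENSG00000206990 occupies chromosome 1 from 165662585 to 165662687, within the last ALDH9A1 exon (165662216 to 165663144) and outside that exon's coding part, on the same strand. It held 54, 190 and 132 counts with siControl, 7, 9 and 4 counts with siNELFA, 55, 103 and 135 counts with siYAP and 8, 12 and 15 counts with both pools. Reads of the small gene and of the ALDH9A1 exon around it cannot be told apart in these counts, so its difference is no second observation.

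The other genes around ALDH9A1 were examined within 500 kb on either side, where 29 genes are annotated and 28 are in the count table. Of these, 21 had at most 10 counts in every library and 6 passed the filter on low counts, the Y RNA gene among them. MGST3, a glutathione transferase gene on the far side of the ALDH9A1 end, was at 41.1 to 52.8 CPM in siControl and 31.8 to 44.6 in siNELFA, a log2 difference of -0.31 (SE 0.21, adjusted p = 1.00). UCK2, a uridine-cytidine kinase gene, differed by -0.10 (SE 0.28, adjusted p = 1.00), and FAM78B and TMCO1-AS1 stayed below 5 CPM on average in all groups.

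TMCO1, an endoplasmic reticulum calcium channel gene upstream of ALDH9A1, had the opposite sign. It was at 60.6, 57.7 and 56.6 CPM in siControl and 67.7, 68.4 and 88.9 in siNELFA, with no overlap, beside 12.2% of all genes tested. In siYAP it was at 48.1, 59.8 and 64.5 CPM and in siNELFA+siYAP at 80.1, 83.4 and 80.5. Neither the siNELFA difference (0.37, SE 0.18, adjusted p = 1.00) nor that of siNELFA+siYAP (0.47, SE 0.11, adjusted p = 0.0966) passed the threshold of 0.05 on the adjusted p. Without siControl replicate 1 the second did, at 0.51 (adjusted p = 0.00016), and its adjusted p over all alternatives ran from 0.00016 to 1.00.

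**Figure D2:**
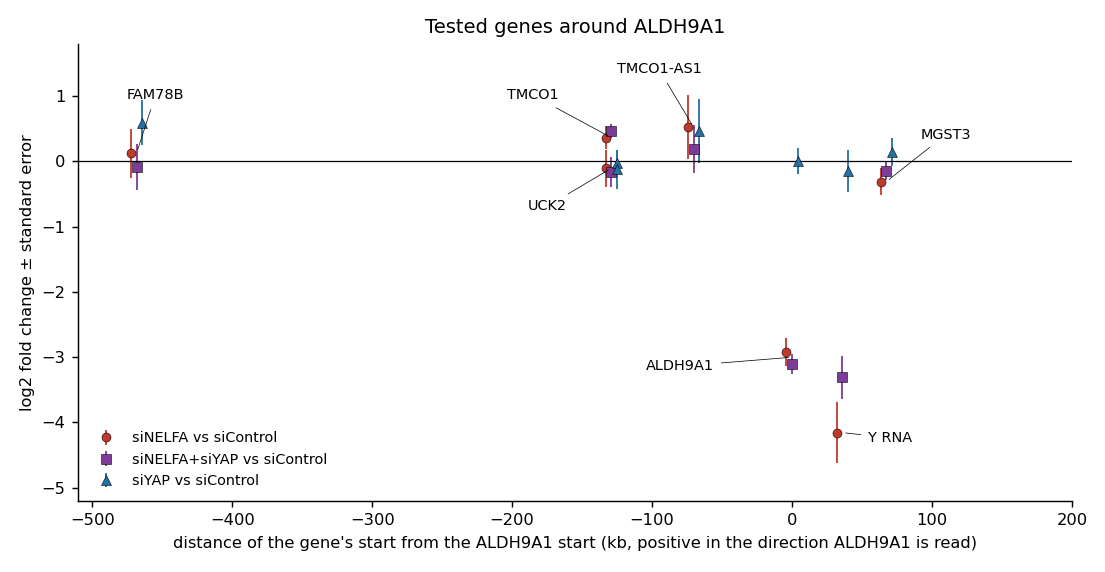
Log2 fold changes with standard errors (vertical axis) of the 6 tested genes within 500 kb and of ALDH9A1, against the distance of each gene's start from the ALDH9A1 start in kb (horizontal axis), with the 3 comparisons with siControl shifted slightly sideways. ALDH9A1 and the Y RNA gene inside it lie near or below -3 in the 2 comparisons with siNELFA, and the other 5 genes lie between -0.31 and 0.59 in all 3.

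Levels of different genes can be compared only per length, which the authors' TPM gives. In siControl the order by mean TPM was ALDH7A1 at 51.4 ± 15.1, ALDH18A1 at 43.7 ± 4.14, ALDH9A1 at 42.0 ± 5.68, ALDH3A2 at 39.3 ± 20.8, ALDH2 at 24.2 ± 9.47, ALDH1B1 at 22.4 ± 3.24, ALDH3B1 at 17.3 ± 4.60, ALDH6A1 at 14.8 ± 10.3, ALDH1A3 at 9.36 ± 1.34 and ALDH16A1 at 8.14 ± 6.08 (SD, n = 3). Each gene's range of 3 libraries overlapped that of the next in this order. ALDH9A1 thus stood among the 4 most abundant of the 10 in control cells.

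The place of ALDH9A1 in that order moved with siNELFA. It had rank 3 of 10 with siControl and with siYAP, rank 9 with siNELFA at 6.15 ± 2.56 TPM and rank 10 with both pools at 4.15 ± 2.45 TPM. ALDH7A1 and ALDH18A1 stayed among the first 4 in all groups. ALDH16A1, the gene next to ALDH9A1 in both low groups, overlapped it in range there.

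Over the 19 genes of the table with an aldehyde dehydrogenase symbol, ALDH9A1 made up 10.4, 15.8 and 20.4% of the summed TPM in siControl and 9.90, 14.9 and 19% in siYAP. It made up 1.41, 3.36 and 5.01% in siNELFA and 1.75, 3.78 and 1.53% in siNELFA+siYAP. The 9 relatives together were at 292, 230 and 170 TPM with siControl, 219, 191 and 145 TPM with siNELFA, 290, 199 and 189 TPM with siYAP and 158, 168 and 158 TPM with both siRNA pools. The relatives' sum in siNELFA+siYAP lay below every siControl and siYAP library, and in siNELFA below siControl at each replicate number. These differences of the sum were not tested. Replicate 1 was the highest library in siControl, siNELFA and siYAP.

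**Figure D3:**
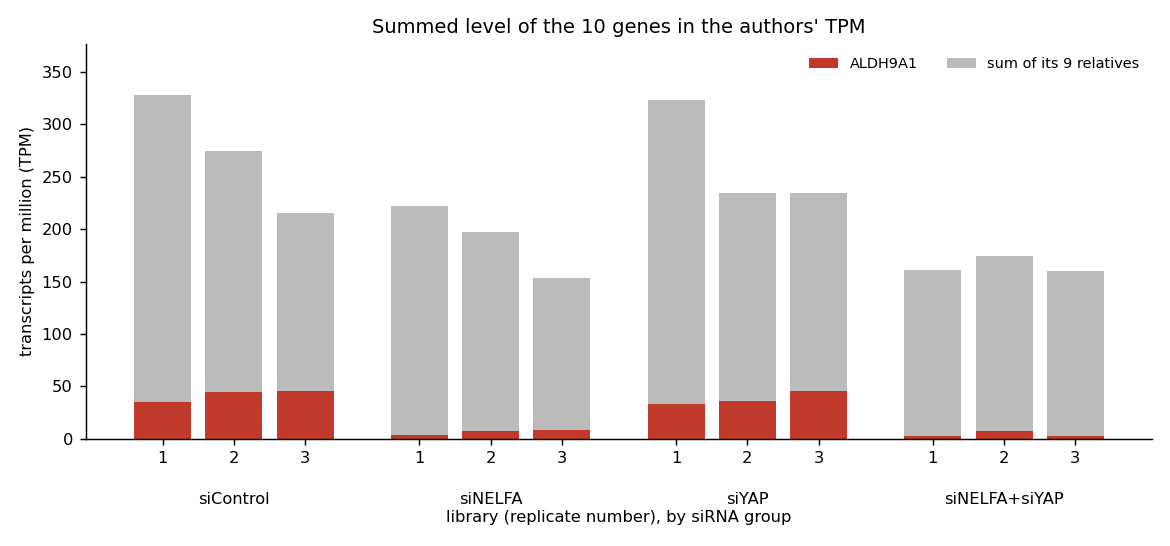
Summed TPM of the 10 genes in each library (bars from 0), with ALDH9A1 in red and the sum of its 9 relatives in grey, by siRNA group and replicate number. ALDH9A1 adds 33.4 to 46.0 TPM in siControl and siYAP and 2.56 to 8.23 in the groups with siNELFA, while the grey part ranges from 145 to 292.

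By edgeR, no relative reached an adjusted p under 0.05 in the 5 pairwise comparisons or in the interaction. In siNELFA against siControl 0 of 9 passed, where 1 of 17727 genes did (0.00564%), and that gene was ALDH9A1 itself. NELFA, the target, did not pass in that fit (adjusted p = 0.381). There 0 of 9 had an unadjusted p under 0.05, where 4.46% of genes did. In siYAP against siControl 0 of 9 passed, beside 0.00578% of 17296 genes, where the only call was YAP1, the target. In siNELFA+siYAP 0 of 9 passed against siControl (0.428% of 17533 genes), 0 of 9 against siYAP (0.035% of 17167) and 0 of 9 against siNELFA (0.00573% of 17463), with 1, 2 and 3 at an unadjusted p under 0.05, beside 18.5%, 15.5% and 6.62% of genes. The only call against siNELFA was again YAP1. Where only a selected or targeted gene passed, 0 of 9 says little about the relatives. DESeq2, run as an alternative, called 1 of the 9 once, ALDH18A1 in siNELFA+siYAP against siControl.

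In siNELFA against siControl 4 relatives had a positive and 5 a negative log2 difference, with a median of -0.11 beside 0.00 over all genes tested. The range ran from -0.76 for ALDH16A1 to 0.46 for ALDH1A3. ALDH18A1 alone of the 9 had groups that did not overlap, where 12.2% of all genes tested had such groups. With the replicate number as a block, the smallest adjusted p among the 9 was 0.0715, for ALDH18A1, although 5.21% of all genes then passed. The split by sign held for the counts only. By mean TPM, ALDH1B1, ALDH2 and ALDH3B1 were below siControl in siNELFA, at 93.7, 92.0 and 88.8% of it. Only ALDH1A3 was above siControl by that measure, at 124%.

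**Figure D4:**
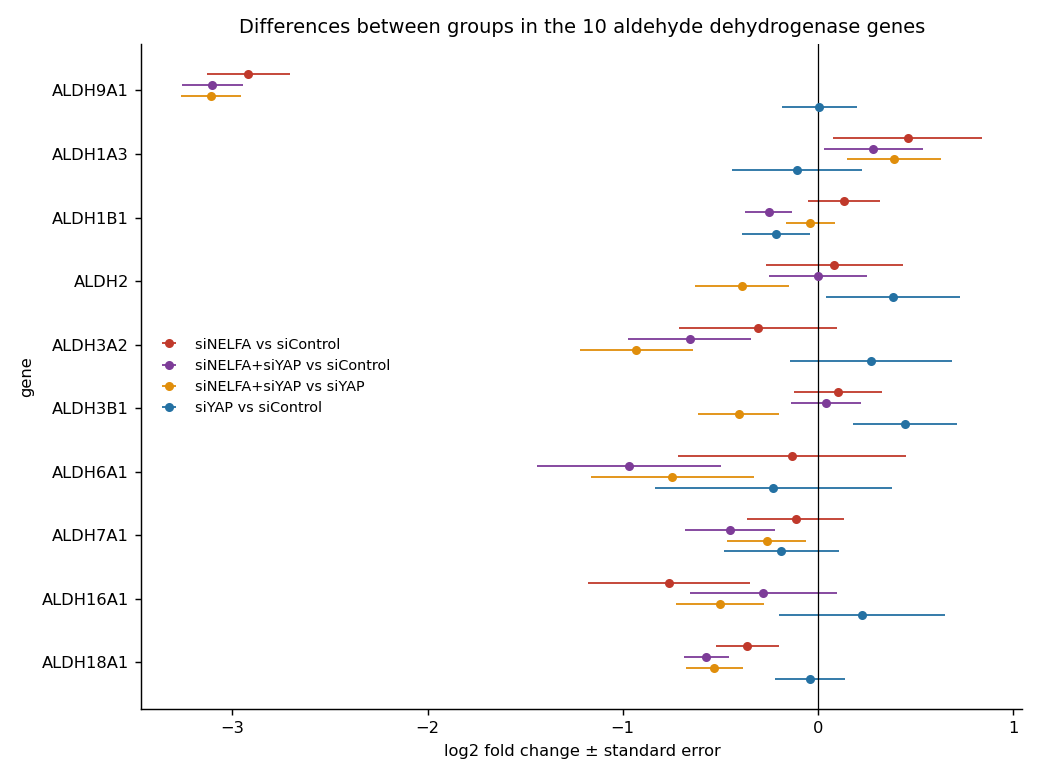
Log2 fold changes with standard errors (horizontal axis) of the 10 genes in 4 comparisons, from edgeR fits to 6 libraries each. ALDH9A1 lies near -3 in the 3 comparisons that add siNELFA and at 0.01 for siYAP, while the 9 relatives lie between -0.97 and 0.46.

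Among the enzymes that make or use amino acids, ALDH18A1 was the relative nearest to following ALDH9A1. It encodes the enzyme that turns glutamate into the precursor of proline and ornithine. Its level was 115, 110 and 108 CPM with siControl, 86.3, 97.7 and 75 CPM with siNELFA, 109, 125 and 90.6 CPM with siYAP and 82.5, 70.2 and 73.3 CPM with both siRNA pools. Both groups with siNELFA lay below every siControl library, and siNELFA+siYAP also lay below every siYAP library.

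The ALDH18A1 difference was -0.36 (SE 0.16, adjusted p = 1.00) in siNELFA against siControl, a level 77.8% of control. In siNELFA+siYAP it was -0.57 (SE 0.11, adjusted p = 0.0806) against siControl, where 2 of the 9 relatives had groups that did not overlap beside 29.8% of all genes. Against siYAP it was -0.53 (SE 0.15, adjusted p = 0.203), with 2 of 9 not overlapping beside 26.5% of all genes. ALDH18A1 passed in siNELFA+siYAP against siControl by DESeq2 (-0.57, adjusted p = 0.00140), where 7.65% of all genes passed.

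ALDH6A1, the methylmalonate semialdehyde dehydrogenase of valine breakdown, was the member most marked by replicate 1. Its level was 85.6, 33.5 and 21.4 CPM with siControl, 71.8, 30.9 and 25.3 CPM with siNELFA, 70.3, 30.7 and 20.1 CPM with siYAP and 24.8, 24.2 and 23.3 CPM with both siRNA pools. Replicate 1 was 1.68, 1.36 and 1.5 higher on the log2 scale than the mean of replicates 2 and 3 in the first 3 groups and 0.06 higher in the last. The difference of siNELFA+siYAP from siControl was -0.97 (SE 0.47, adjusted p = 0.326) with all libraries and -0.19 without siControl replicate 1.

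ALDH7A1, which oxidises the semialdehyde of lysine breakdown, was the most abundant member per length in 3 of the 4 groups. It lay at 111, 73.4 and 60.9 CPM with siControl, 84.9, 73.9 and 67.9 CPM with siNELFA, 92.4, 70.4 and 53.9 CPM with siYAP and 57.0, 66.2 and 57.9 CPM with both siRNA pools. The siNELFA difference was -0.11 (SE 0.25, adjusted p = 1.00), within the spread of the libraries, and 0.09 with replicates 2 and 3 of both groups. The siNELFA+siYAP libraries all lay below the siNELFA ones, a difference of -0.33 (SE 0.13, adjusted p = 0.735) that did not pass.

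ALDH1A3, which makes retinoic acid from retinaldehyde, was the only relative with a positive difference in all 3 comparisons that add siNELFA. Its level was 27.4, 14.3 and 18.1 CPM with siControl, 42.2, 19 and 21.0 CPM with siNELFA, 25.5, 14.8 and 15.4 CPM with siYAP and 21.4, 27.1 and 24.6 CPM with both siRNA pools. In CPM the siNELFA library was above the siControl library at each replicate number. The groups nevertheless overlapped, since replicate 1 of siControl exceeded replicates 2 and 3 of siNELFA. By TPM the siNELFA library was higher at replicate 1 only, with 10.8, 8.23 and 9.01 in siControl and 20.1, 8.09 and 6.47 in siNELFA.

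The ALDH1A3 difference was 0.46 (SE 0.38, adjusted p = 1.00) in siNELFA against siControl. With the replicate block it was 0.42 (SE 0.15, adjusted p = 0.134). Single libraries moved the siNELFA value widely, from 0.01 without siNELFA replicate 1 to 0.76 without siControl replicate 1, and with replicates 2 and 3 of both groups it was 0.31 (adjusted p = 0.469). In siNELFA+siYAP it was 0.28 (SE 0.25, adjusted p = 0.590) against siControl and 0.39 (SE 0.24, adjusted p = 0.470) against siYAP.

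ALDH2 and ALDH1B1 are mitochondrial enzymes that clear acetaldehyde. ALDH2 was at 68.7, 36.1 and 39.9 CPM with siControl, 74.3, 40.5 and 38.4 CPM with siNELFA, 89.5, 46.4 and 54.0 CPM with siYAP and 50.0, 47.5 and 48.1 CPM with both siRNA pools. Its siNELFA difference was 0.08 (SE 0.35, adjusted p = 1.00), and its siYAP difference 0.39 (SE 0.34, adjusted p = 1.00). In CPM the siYAP library exceeded the siControl library at each replicate number. By TPM replicate 2 went the other way, at 20.2 in siControl and 19.8 in siYAP. The blocked siYAP value was 0.39 (SE 0.13, adjusted p = 0.525). Without the block it was 0.06 without siYAP replicate 1, 0.74 without siControl replicate 1 and 0.41 with replicates 2 and 3 of both groups.

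ALDH1B1 was at 52.9, 51.8 and 46.3 CPM with siControl, 65.9, 53.4 and 46.3 CPM with siNELFA, 45.6, 46.1 and 39.1 CPM with siYAP and 43.4, 40.4 and 44 CPM with both siRNA pools. Both groups with siYAP lay below siControl with no overlap, for siYAP alone as 1 of 9 relatives beside 7.76% of all genes. Neither difference passed, at -0.21 (SE 0.17, adjusted p = 1.00) for siYAP and -0.25 (SE 0.12, adjusted p = 0.320) for siNELFA+siYAP.

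ALDH3A2, the fatty aldehyde dehydrogenase of the endoplasmic reticulum, was at 114, 57.2 and 49.2 CPM in siControl and 85.6, 54.7 and 38.4 in siNELFA. It was at 136, 71.0 and 61.8 CPM in siYAP and 50.4, 46.7 and 44.3 in siNELFA+siYAP. The siNELFA difference was -0.31 (SE 0.40, adjusted p = 1.00), and -0.18 with replicates 2 and 3 of both groups. At each replicate number the siNELFA library lay below the siControl library and the siYAP library above it. With the replicate block the siNELFA difference was -0.28 (SE 0.12, adjusted p = 0.208) and the siYAP difference 0.29 (SE 0.12, adjusted p = 0.544). The siNELFA+siYAP libraries lay below every siYAP library, with a difference of -0.93 (SE 0.29, adjusted p = 0.225) against siYAP.

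ALDH3B1, which oxidises medium- and long-chain aldehydes, lay at 43.7, 42.2 and 29.3 CPM with siControl, 45.6, 44.4 and 33.8 CPM with siNELFA, 67.9, 51.2 and 38.8 CPM with siYAP and 38.8, 42.4 and 38.3 CPM with both siRNA pools. At each replicate number the siNELFA and the siYAP library both exceeded the siControl library, while the groups overlapped. The siNELFA difference was 0.10 (SE 0.22, adjusted p = 1.00), or 0.11 (SE 0.13, adjusted p = 0.669) with the replicate block. The siYAP difference was 0.45 (SE 0.27, adjusted p = 1.00), or 0.43 (SE 0.14, adjusted p = 0.525) with the block. Without siYAP replicate 1 it was 0.23, and with replicates 2 and 3 of both groups 0.33.

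ALDH16A1, an atypical member whose mammalian protein lacks the usual catalytic cysteine, was the lowest relative in siControl. It held 67, 413 and 388 counts in siControl, or 7.24, 22.7 and 20.0 CPM, and 7.83, 11.2 and 10.4 CPM in siNELFA. In siYAP it was at 13.7, 22.5 and 22.5 CPM and in siNELFA+siYAP at 14.7, 14.9 and 12.2. Apart from replicate 1 of siControl, every siControl and siYAP library lay above every siNELFA library.

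The ALDH16A1 difference was -0.76 (SE 0.42, adjusted p = 1.00) in siNELFA against siControl and -0.68 (SE 0.22, adjusted p = 0.0957) with the replicate block. Against siNELFA the siNELFA+siYAP libraries were all higher, at 0.50 (SE 0.20, adjusted p = 0.735). In that comparison 4 of 9 relatives had groups that did not overlap, ALDH16A1 higher and ALDH1B1, ALDH6A1 and ALDH7A1 lower, beside 15.1% of all genes.

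**Figure D5:**
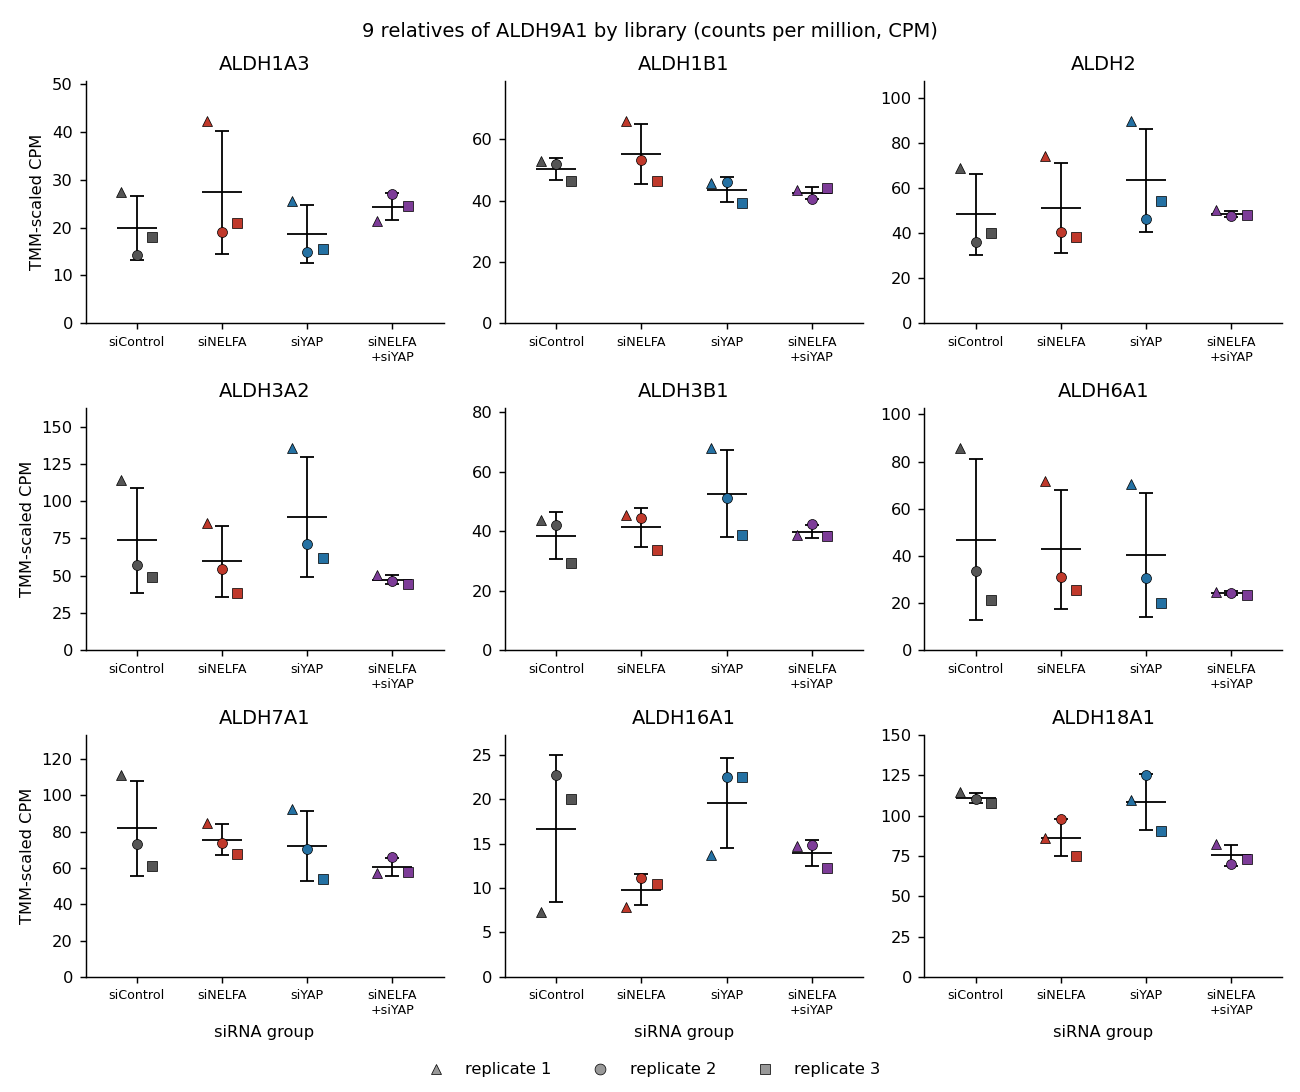
TMM-scaled CPM of the 9 relatives, 1 panel per gene with its own axis from 0, 1 point per library by siRNA group with the replicate number as the symbol, and the mean with the SD of 3 libraries. Replicate 1 (triangles) lies highest for ALDH1A3, ALDH2, ALDH3A2, ALDH3B1, ALDH6A1 and ALDH7A1 in siControl, siNELFA and siYAP and lowest for ALDH16A1.

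How many relatives passed in the double knockdown moved with the libraries that held CDH1. Without siControl replicate 1, 4 of 9 relatives passed in siNELFA+siYAP against siControl, beside 24.4% of all genes. ALDH18A1 was at -0.54 (adjusted p = 0.000121) and ALDH16A1 at -0.63 (adjusted p = 0.00372), while ALDH1A3 was at 0.58 (adjusted p = 0.00693) and ALDH2 at 0.35 (adjusted p = 0.0113). With replicates 2 and 3 of both groups, chosen after seeing the data, the same 4 passed, beside 17.9% of all genes. Over all alternatives the lowest adjusted p was 0.000121 for ALDH18A1, 0.00372 for ALDH16A1, 0.00693 for ALDH1A3 and 0.0113 for ALDH2, and the highest was 1.00 for all 4.

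Without siYAP replicate 1, 4 of 9 relatives passed in siNELFA+siYAP against siYAP, beside 16.5% of all genes. ALDH18A1 was at -0.52 (adjusted p = 0.0119), ALDH16A1 at -0.70 (adjusted p = 0.00484), ALDH3A2 at -0.50 (adjusted p = 0.00461) and ALDH1A3 at 0.69 (adjusted p = 0.00517). The same 4 passed with replicates 2 and 3 of both groups, beside 7.7% of all genes. Over all alternatives the adjusted p of these 4 reached 1.00. In siNELFA against siControl no relative passed with replicates 2 and 3 alone, where 0.0996% of genes did, and ALDH16A1 came nearest at -0.97 (adjusted p = 0.0813). What made replicate 1 differ was not tested.

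These calls also depend on counting the siNELFA+siYAP libraries as 3 replicates. With their counts summed to 1 library, an alternative chosen after seeing the data in which that library is assumed to vary like the other group, edgeR called 0 of 9 relatives against siControl and 0 of 9 against siYAP, beside 0% of all genes in both (340 and 181 genes at an unadjusted p under 0.05). With the summed library against replicates 2 and 3 of siControl, 3 of 9 passed, beside 9.05% of all genes. These were ALDH18A1 at -0.54 (adjusted p = 0.0107), ALDH16A1 at -0.63 (adjusted p = 0.0450) and ALDH1A3 at 0.60 (adjusted p = 0.0450). Against replicates 2 and 3 of siYAP 0 of 9 passed, beside 0.996% of all genes.

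The siNELFA effect on the relatives did not differ detectably with siYAP present. The interaction over all 12 libraries passed for 0 of 9 relatives and 0 of 18525 genes (0% called, with 326 genes at an unadjusted p under 0.05), and DESeq2 also called 0 genes. Among the relatives 8 of the 9 interaction values were negative and the median was -0.17, beside -0.01 over all genes. The signs followed replicate 1, which stood apart in every group but siNELFA+siYAP. In siControl, siNELFA and siYAP, replicate 1 lay above the mean of the other replicates for those 8 relatives. It lay below that mean for ALDH16A1, whose interaction value was 0.28. The values also count the siNELFA+siYAP libraries as separate replicates, which is not settled. What gave the signs was not tested.

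The 9 other aldehyde dehydrogenase genes in the table averaged at most 11.7 CPM in any group, the level of ALDH4A1 in siNELFA. ALDH1A1, often used as a stem-like cell marker, had 0 counts in 10 libraries and 2 and 6 in the others, and ALDH3B2, ALDH3A1 and ALDH8A1 averaged under 1 CPM in all groups. ALDH1A2, a second retinaldehyde dehydrogenase, was at 3.14, 1.65 and 1.24 CPM in siControl and 0.496, 0.143 and 0.752 in siNELFA+siYAP. That difference, from at most 30 counts a library, was -2.04 (SE 0.63, adjusted p = 0.165).

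ALDH5A1, the succinate semialdehyde dehydrogenase of GABA breakdown, was lower than siControl in every other group, with no overlap. Of all genes tested, 12.2% likewise did not overlap siControl after the siNELFA pool, 7.76% after the siYAP pool and 29.8% after both. These comparisons share their siControl libraries, which held only 48 to 94 ALDH5A1 counts. ALDH5A1 lay at 5.19, 4.07 and 4.86 CPM with siControl, 3.37, 3.28 and 4.03 CPM with siNELFA, 2.78, 3.56 and 3.32 CPM with siYAP and 0.909, 2.72 and 2.68 CPM with both siRNA pools. None of its differences passed, at -0.40 (SE 0.28, adjusted p = 1.00) for siNELFA, -0.54 (SE 0.30, adjusted p = 1.00) for siYAP and -1.15 (SE 0.41, adjusted p = 0.210) for siNELFA+siYAP against siControl. The folate enzyme ALDH1L1 lay at 1.49 to 9.02 CPM over the 12 libraries, and its mitochondrial counterpart ALDH1L2 at 0.123 to 1.95 CPM. ALDH1L1 did not overlap between siNELFA+siYAP and siYAP, at -1.49 (SE 0.54, adjusted p = 0.265), beside 26.5% of all genes.

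ALDH4A1, the proline-breakdown enzyme and the most abundant of these 9, was higher with siNELFA at every replicate number. It lay at 5.19, 9.12 and 6.35 CPM with siControl, 11.1, 11.9 and 11.9 CPM with siNELFA, 9.41, 9.61 and 8.37 CPM with siYAP and 9.75, 11.3 and 11.0 CPM with both siRNA pools. The siNELFA difference was 0.76 (SE 0.27, adjusted p = 1.00), and 0.78 (SE 0.21, adjusted p = 0.0482) with the replicate block, past the threshold by a small margin in a fit where 5.21% of all genes passed. ALDH4A1 runs in the opposite direction to ALDH18A1 on the path between proline and glutamate.

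Of the genes listed for carnitine, polyamine and GABA, retinoid, aldehyde-clearing, and proline and glutamate metabolism, none passed without the block in any comparison. In siNELFA against siControl this was 0 of 7 tested carnitine synthesis, uptake and use genes, 0 of 11 polyamine and GABA genes, 0 of 9 retinoid genes, 0 of 12 other aldehyde-clearing enzymes and 0 of 7 proline and glutamate genes. The median log2 differences were -0.05, 0.15, 0.26, -0.02 and 0.25 in that order, beside 0.00 over all genes. With 0.00564% of all genes past the threshold in that fit, these counts of 0 say little about the lists.

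With the replicate block 3 of 11 polyamine and GABA genes, 1 of 9 retinoid genes, 1 of 12 other aldehyde-clearing enzymes, 1 of 7 proline and glutamate genes (ALDH4A1) and 0 of 7 carnitine genes passed in siNELFA against siControl, beside 5.21% of all genes. The polyamine gene SMOX, which oxidises spermine, was at 12.5, 14.5 and 16.2 CPM in siControl and 32.4, 22.7 and 25.8 in siNELFA, a blocked difference of 0.88 (SE 0.17, adjusted p = 0.0129). AMD1, which makes the aminopropyl donor for spermidine and spermine, was at 66.3, 85.0 and 84.3 CPM in siControl and 45.1, 61.0 and 56.3 in siNELFA (blocked difference -0.54, SE 0.11, adjusted p = 0.0164). Neither pair of groups overlapped, beside 12.2% of all genes tested, and both genes are named for passing the blocked fit.

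SAT1, which acetylates polyamines for breakdown, was at 233, 30.7 and 41.3 CPM in siControl and 281, 52.3 and 64.1 in siNELFA (blocked difference 0.55, SE 0.12, adjusted p = 0.0189). Its 2 groups overlapped because replicate 1 stood far above the others in both. The retinaldehyde reductase DHRS3 rose in the same fit by 1.05 (SE 0.22, adjusted p = 0.0169), at 19.9, 3.02 and 0.878 CPM in siControl and 37.2, 5.41 and 2.84 in siNELFA. AKR1B1, the aldose reductase, also rose there by 0.41 (SE 0.09, adjusted p = 0.0185), or 0.12 to 0.68 without the block and with single libraries left out, at 570, 387 and 335 CPM in siControl and 796, 474 and 460 in siNELFA. DHRS3 and SAT1 changed sign when a single library was left out without the block, and over all alternatives the adjusted p of these 5 genes and of ALDH4A1 reached 1.00.

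Over the 12 libraries, the genes with a pattern most like that of ALDH9A1, by Pearson correlation of log2 CPM among 12970 genes averaging at least 50 counts, were EI24 (0.994), RNF168 (0.988), SELENOT (0.984), USF3 (0.970) and NELFA itself (0.964). The most opposite were GLG1 (-0.978), PDIA6 (-0.977), SLC39A9 (-0.973), KDM1B (-0.964) and ADPGK (-0.963). Each coefficient rests on the division into 6 libraries with and 6 without siNELFA and describes that division. EI24, for example, averaged 1713 and 1785 normalized counts in the groups without siNELFA and 564 and 606 in those with it. Among the 9 relatives the coefficient with ALDH9A1 ran from -0.555 for ALDH1A3 to 0.825 for ALDH18A1.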

How the data were processed

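Total RNA libraries of MDA-MB-231 cells were sequenced as read pairs. Per the paper's methods and the submitters' processing notes, which name FastQC, cutadapt, STAR, featureCounts, Cufflinks and DESeq2 without versions, reads were aligned to GRCh38. The deposited counts per gene are whole numbers that were not normalized. The deposited TPM values were made by the authors with Cufflinks, which models isoforms, so they need not follow the counts. Counting options are not given in the sources used here. FPKM values were not used.

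Genes were tested in R 4.3.3 with edgeR 4.0.16 (TMM, filterByExpr at 10 counts, quasi-likelihood test) on the 6 libraries of each comparison, and the interaction on all 12. Adjusted p-values are Benjamini-Hochberg over all genes tested, at 0.05. Normalized counts are CPM rescaled to the mean library size. Positions come from GENCODE 44, and matplotlib 3.10.9 drew the figures. The scripts were tested on simulated data. Alternatives were DESeq2 1.42.0, RLE scaling, other filters, 1 fit of all libraries, limma 3.58.1 on log2(TPM + 1) and log2(TPM + 0.1), the replicate block, and leaving out each library.

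The methods call the replicates biological, but the library names number the siNELFA+siYAP libraries as repeats of a single replicate, so these were also summed to 1 library as an added alternative. Replicate numbers paired siControl, siNELFA and siYAP (correlations of deviations from the group mean 0.638 to 0.885 over genes averaging 50 counts) but not siNELFA+siYAP (-0.0532 to 0.0326). Named genes were all members, the other aldehyde dehydrogenase genes, list genes past the threshold with or without the block, genes within 500 kb, the 5 nearest and 5 most opposite patterns, and both targets. Members and lists were chosen with earlier results of these data known.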

Additional observations from a re-analysis of the deposited data

How the results depend on the processing

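The siNELFA-containing differences of ALDH9A1 kept their sign in every alternative. They moved most in limma on TPM, to -2.65 with a pseudocount of 1 (with and without the filter) for siNELFA against siControl, and with a pseudocount of 0.1 to -3.44 and -3.32 for siNELFA+siYAP against siControl and siYAP. With single libraries left out they ran from -3.05 to -2.82, -3.21 to -3.02 and -3.2 to -3.01. The siYAP difference of ALDH9A1, near 0, changed sign in limma on TPM (-0.13 with 0.1, -0.12 with 1, with and without the filter) and ran from -0.10 to 0.11 with single libraries left out.

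The number of relatives past the threshold moved from 0 to 1 by DESeq2 in siNELFA+siYAP against siControl, and to between 0 and 4 with single libraries left out against siControl and siYAP, the 4 coming without replicate 1. It was 4 in both with replicates 2 and 3 only. With the siNELFA+siYAP libraries summed to 1 it was 0, and 3 against replicates 2 and 3 of siControl. The replicate block gave 0 relatives throughout. In the siNELFA+siYAP comparisons the replicate numbers do not pair the groups, so that 0 says little there.

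The counts over all genes moved more. For siNELFA against siControl, 1 gene became 28 by DESeq2, 8 in 1 fit of all libraries, 6 in limma with 0.1, 5 with 1 and 3 without its filter, 3 without the count filter, 924 with the replicate block, 18 with replicates 2 and 3, and 0 to 1 with single libraries left out. For siYAP, 1 became 2 by DESeq2, 10, 3 and 2 in those limma fits, 3 with the block and 0 to 1 with libraries left out. For siNELFA+siYAP against siControl, 75 became 1342 by DESeq2, 14, 6 and 4 in limma, 117 at a mean of 50 counts, 381 without the filter, 2 with the block, 3259 with replicates 2 and 3, and 0 to 4531 with libraries left out. Against siYAP, 6 became 749 by DESeq2, 2 and 0 in limma with 1 and without its filter, 222 without the count filter, 1 with the block, 1349 with replicates 2 and 3, and 0 to 2937. Against siNELFA, 1 became 45 by DESeq2, 14, 7 and 5 in limma, 26 without the filter, 28 with replicates 2 and 3, and 1 to 228. The interaction went from 0 to 2 in limma without its filter. With the siNELFA+siYAP libraries summed to 1, its 3 comparisons gave 0 genes each (340, 181 and 51 at an unadjusted p under 0.05), and against replicates 2 and 3 of siControl, siYAP and siNELFA they gave 1762, 186 and 2. The causes were not tested.

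Single genes changed sign with single libraries left out. In siNELFA against siControl, ALDH3A2 then ran from -0.66 to 0.17 (the latter without siControl replicate 1), DHRS3 from -0.91 (without siNELFA replicate 1) to 2.95, and SAT1 from -0.80 (without siNELFA replicate 1) to 1.88. In siYAP, ALDH3A2 ran from -0.15 (without siYAP replicate 1) to 0.75. In siNELFA+siYAP against siControl, ALDH16A1 ran from -0.63 to 0.0038 (without siControl replicate 2) and ALDH2 from -0.17 to 0.35 (without siControl replicate 1). ALDH2, within 0.01 of 0 with all libraries, was 0.014 in 1 fit of all libraries, 0.0044 without the filter, 0.33 with replicates 2 and 3, 0.023 with the siNELFA+siYAP libraries summed and 0.36 with them against replicates 2 and 3 of siControl. With the replicate block, where numbers do not pair these groups, ALDH2 was 0.061.

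ALDH9A1 still held 111 to 220 counts in the low libraries. Its TPM there spread more than its CPM, at 6.15 ± 2.56 in siNELFA and 4.15 ± 2.45 in siNELFA+siYAP (SD), where the spread may be technical. With 3 libraries a group, the standard errors of the relatives, 0.11 to 0.61 in the pairwise comparisons, limit the difference that could be seen in them.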
